A study of Drosophila melanogaster with 4 samples.

Results

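Short autosomal stretches of H4K20me1 are described here, meaning sequence of at least 1000 and under 3000 bp that lay inside an enriched cluster of both ChIP replicates on the arms 2L, 3L and 3R. They were found by intersecting the replicate 1 and replicate 2 cluster lists base by base and keeping the pieces in that length range. The rule gave 1815 stretches, out of 6711 shared stretches in the whole series and 4101 on these 3 arms. The members were chosen by the starts and ends of the deposited clusters, so their lengths, parents and scores are given as description, with no test. The series measured histone H4 monomethylated at lysine 20 by chromatin immunoprecipitation and sequencing (ChIP-seq) in nuclei of heads sieved from adult flies. All 4 libraries came from wild-type Oregon-R flies of mixed adult age kept in population cages, with no transgene or treatment named. The ChIP group had 2 replicates made with the 3rd lot of the antibody, and the input group had 2 replicates that entered only through the authors' cluster calls. Whether the replicates stem from different batches of flies is not stated, and their spread may be purely technical. Heads hold many cell types, and a cluster list from bulk tissue cannot tell a mark in a few cells from a weak mark in many.

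H4K20me1 is placed by the methyltransferase PR-Set7, also called Set8, and can be carried on to higher methylation states by Suv4-20. The mark is tied to the cell cycle and to chromatin compaction, and in animal cells it is often found over gene bodies. Proteins with MBT repeats, such as the fly L(3)mbt, bind lysines of low methylation state. A fly head holds neurons, glia, eye cells and other cells, most of which no longer divide. No gene is named for any stretch, because coordinates here are those of FlyBase release 5, for which no annotation was used.

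Short stretches were numerous and made up little of the marked sequence. They formed 44.3% of the 4101 shared stretches on the 3 arms and held 19.5% of the shared bases, or 3.59 of 18.4 Mb. Stretches of 3 to 10 kb numbered 1481 and held 42.8% of the bases, and the 389 of 10 kb or more held 36.7%. The median short stretch was 1958 bp long, with quartiles of 1552.5 and 2357 bp. By arm there were 615 on 2L, 517 on 3L and 683 on 3R, which is 26.7, 21.1 and 24.5 per Mb. The arm 2L was thus the densest of these in short stretches, although it had the fewest of 10 kb or more per Mb (4.43, against 4.73 on 3L and 6.13 on 3R). The same length range gave 26.6 per Mb on 2R and 33.0 per Mb on X.

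The shortest cluster in either replicate list was 1.30 kb long, so a stretch below that length cannot be a whole cluster of either replicate. Of the members, 110 (6.06%) fell below it and are therefore overlaps of clusters with displaced ends. Another 279 were longer than this and under 1500 bp, 572 ran up to 2 kb, 527 up to 2.5 kb and 327 from there to the upper limit. From 1500 bp up, equal steps of 500 bp thus held fewer stretches the longer they were. A further 416 shared stretches on these arms were under 1 kb, with a median of 368.5 bp, and were left out by the rule. The shortest members were 3R:21149538-21150544 (1007 bp; scores of 0.678 in replicate 1 and 0.753 in replicate 2) and 3R:4674536-4675552 (1017 bp; 0.376 and 0.852). Just below the limit were 2L:11899907-11900905 (999 bp; 0.822 and 0.720) and 3L:17215105-17216103 (999 bp; 0.496 and 0.770). At the upper limit, 2L:6895287-6898285 and 2L:10257799-10260797 were both 1 bp under 3 kb, with scores of 0.983 and 0.952 for the first and 0.731 and 0.965 for the second. The nearest excluded were 3R:16675707-16678706 and 3R:21882257-21885256, both 3000 bp long, with scores of 1.40 and 1.42 and of 1.05 and 0.618. At the lower limit the scores inside and outside overlapped in both replicates. At the upper limit those of replicate 2 overlapped, while in replicate 1 both stretches just outside scored above both just inside.

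With the limit for a short cluster at 3 kb, most short stretches were pieces of a longer cluster in at least 1 replicate. Each stretch has a parent cluster in each list, the cluster it lies in. Both parents were under 3 kb for 633 of the 1815 (34.9%, 95% Wilson interval 32.7 to 37.1, which covers counting error over regions only). In 465 (25.6%) the replicate 1 parent alone was 3 kb or more, and in 561 (30.9%) the replicate 2 parent alone. The remaining 156 (8.60%) had 2 parents of 3 kb or more that overlapped over less than 3 kb. At this limit 1182 stretches (65.1%) had a longer parent in 1 list or both. The majority turned with the limit: both parents were under 4 kb in 52.6% and under 5 kb in 62.8%, and with shared stretches under 1 kb apart joined, 51.0% had both parents under 3 kb.

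**Figure D1:**
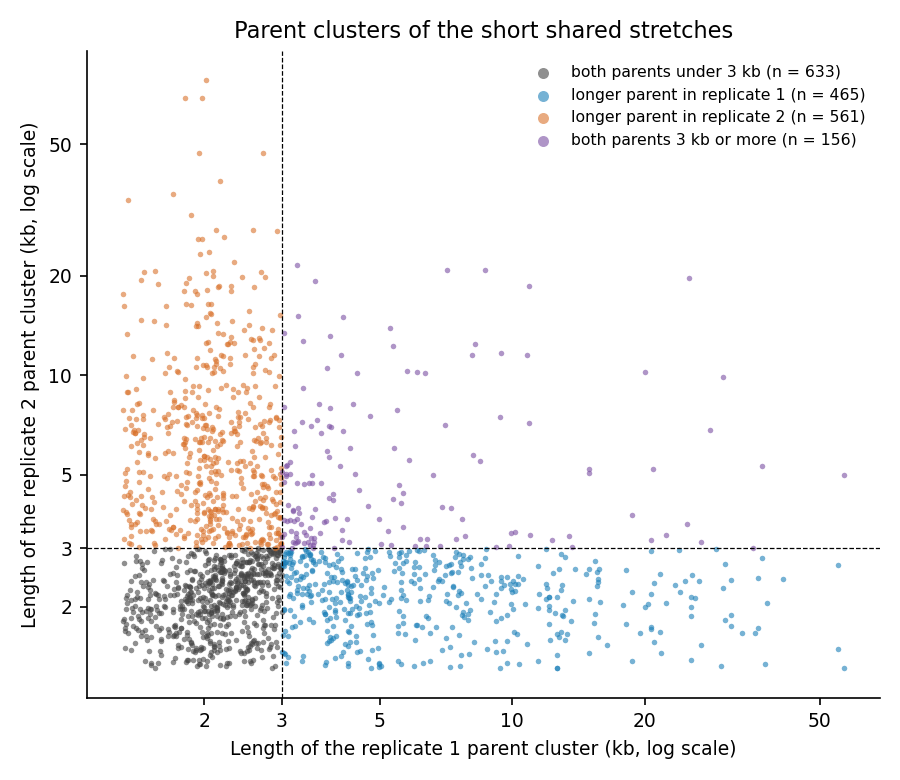
Length of the replicate 1 parent (x axis, kb, log scale) against that of the replicate 2 parent (y axis, kb, log scale) for the 1815 short shared stretches, with dashed lines at 3 kb. The 633 stretches with both parents under 3 kb fill the lower left corner, and the longer parents reach 56659 bp in replicate 1 and 78076 bp in replicate 2.

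Among the 633 stretches short in both lists, the match in position varied. The median parent was 2166 bp long in replicate 1, against 2160 bp in replicate 2, and the shared part had a median of 1782 bp. Starts of the parents differed by a median of 224 bp and ends by 236 bp. In 387 (61.1%) both ends lay within 500 bp of each other. The shared part took at least 80% of both parents in 308 (48.7%), and 1 parent lay wholly inside the other in 270 (42.7%). The rule itself, with both parents under 3 kb and at least 1 kb shared, fixes much of this match, so these values are a description of the calls.

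Where 1 parent was longer, the shorter one usually lay wholly inside it. Among the 465 stretches with a longer replicate 1 parent, the replicate 2 cluster was nested in 329 (70.8%), and among the 561 with a longer replicate 2 parent the replicate 1 cluster was nested in 364 (64.9%). The lengths that define these classes, with at least 1 kb shared, favour nesting, so these shares are a description of the calls. A longer parent of replicate 1 had a median of 5628 bp and one of replicate 2 of 5662 bp. They were under 5 kb in 211 (45.4%) and 238 (42.4%), just past the limit, and 10 kb or more in 114 (24.5%) and 115 (20.5%). The short stretch took a median of 35.1% and 33.4% of its longer parent. In 331 of the 465 (71.2%) and 376 of the 561 (67.0%), the longer parent also held at least 1 other shared stretch. Most of these stretches thus lay in a cluster of 1 replicate that also overlapped at least 1 more cluster of the other, over any length. Stretches are counted here, so a parent with several of them counts several times. Over all members, the parent held another shared stretch in 26.8% for replicate 1 and 28.3% for replicate 2. Among stretches of 3 to 10 kb these shares were 30.5% and 29.0%.

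The 5 short stretches with the longest parents had them in either list. The stretch on 3R:21368433-21370446 was a 2014-bp cluster of replicate 1 (score 0.480) inside a 78076-bp cluster of replicate 2 (score 1.36) that held 4 shared stretches. Neighbouring stretches on 2L, 3132535-3134514 and 3134628-3136432, were clusters of 1980 and 1805 bp in replicate 1 and lay 113 bp apart inside a single 69073-bp cluster of replicate 2. Their replicate 1 scores were 0.541 and 0.458 (percentiles 14.7 and 6.99 of that list), and the replicate 2 cluster scored 1.44 (percentile 85.3). On 3L a 56659-bp cluster of replicate 1 (score 1.16) held the stretches 10561990-10563296 and 10563703-10565272, whose replicate 2 scores were 0.439 and 0.876. The first was the reverse case, a 1307-bp cluster of replicate 2 inside the longer one. The second was its overlap with a 4983-bp cluster of replicate 2 that ran past its end. For each of the 5 the nearest other shared stretch was 100 to 406 bp away. The pick by longest parent fixes that all 5 were small parts of a far longer cluster of 1 replicate.

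On 2L the longer parent belonged to replicate 2 more often than to replicate 1. There, 231 stretches had a longer replicate 2 parent and 122 a longer replicate 1 parent, whereas 3L had 140 and 148 and 3R had 190 and 195. Replicate 2 led in 18 of the 23 windows of 1 Mb on 2L, replicate 1 led in 2 and they were equal in 3, so the lead was spread along the arm. On 3L replicate 2 led in 9 of 24 windows and on 3R in 16 of 27. The whole lists moved the same way on 2L, where clusters covered 25.7% of the arm in replicate 1 and 27.9% in replicate 2, and clusters of 10 kb or more numbered 123 and 151. Coverage also stood higher in replicate 2 on 3L (26.4% and 27.3%) and 3R (31.0% and 31.8%), by less. On X, where replicate 1 covered more (23.4% against 19.9%), stretches of the same length had a longer replicate 1 parent in 293 cases and a longer replicate 2 parent in 103. The part of list coverage in these counts was not tested.

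Short clusters of a single list did not all find a partner. On the 3 arms replicate 1 listed 1772 clusters under 3 kb and replicate 2 listed 1932. Of these, 1191 (67.2%) and 1096 (56.7%) contributed to a short shared stretch, while 417 (23.5%) and 643 (33.3%) shared no base with the other list. Another 164 and 191 gave only shared stretches under 1 kb. The share without a partner was not counted for longer clusters, so it cannot be called particular to short ones. In replicate 1 the median cluster without a partner measured 1710 bp and the median contributing one 2115 bp. In replicate 2 these lengths were 1644 and 2170 bp. Their median scores were close to those of the contributing clusters, at 0.591 against 0.608 in replicate 1 and 0.767 against 0.775 in replicate 2. A short cluster with a partner therefore scored about the same as one without, while its greater length bears on the rule itself.

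The share of short stretches that stood alone depended on the distance used. A stretch was called isolated when no other shared stretch of any length lay within 5 kb on either side. This held for 305 (16.8%, 95% Wilson interval 15.2 to 18.6), while 951 (52.4%) had a stretch of 3 kb or more within 5 kb and 559 (30.8%) had only shorter ones. With neighbours looked for within 2 kb the isolated share was 33.5%, and within 10 kb it was 8.21%. With shared stretches under 1 kb apart joined first it was 32.9%, and with clusters of either list counted as neighbours 8.21%. At 5 kb, isolated stretches made up 15.3% on 2L, 17.4% on 3L and 17.7% on 3R. The median gap to the nearest shared stretch was 967 bp, with quartiles of 271.5 and 2868 bp. For the nearest stretch of 3 kb or more the median gap was 4439 bp, and for the nearest of 10 kb or more it was 53140 bp. Distances to longer stretches alone cannot be smaller than that to the nearest of any length, so this order is fixed. For stretches of 3 to 10 kb the median gap to the nearest shared stretch was 806 bp, and for those of 10 kb or more 683 bp. Without replicate 2, that is among the clusters of this length in replicate 1 alone, 20.99% were isolated from other clusters of that list, and without replicate 1 it was 15.6%.

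Of the 1510 stretches with a neighbour within 5 kb, the nearest was another stretch of 1 to 3 kb in 665 (44.0%), one of 3 to 10 kb in 519 (34.4%), one under 1 kb in 210 (13.9%) and one of 10 kb or more in 116 (7.68%). The sequence between the 2 was not always unmarked. A single replicate 1 cluster ran across the gap in 449 cases (29.7%) and a single replicate 2 cluster in 421 (27.9%). In the other 640 (42.4%) no single cluster of either list joined them. These are counts of stretches, and 2 stretches that are each other's nearest share a gap. Counted once each, there were 1272 gaps within 5 kb, of which 382 (30.0%) were spanned in replicate 1, 345 (27.1%) in replicate 2 and 545 (42.8%) in neither. Narrow gaps were the ones that 1 list bridged: of 532 gaps under 500 bp, 278 were spanned in replicate 1, 214 in replicate 2 and 40 in neither. From 2 to 5 kb, 246 of 263 gaps were spanned by neither list, and from 5 kb up none was spanned. Gaps with a short stretch on both sides showed the same order, with 12 of 136 under 500 bp and 110 of 116 from 2 to 5 kb spanned by neither.

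**Figure D2:**
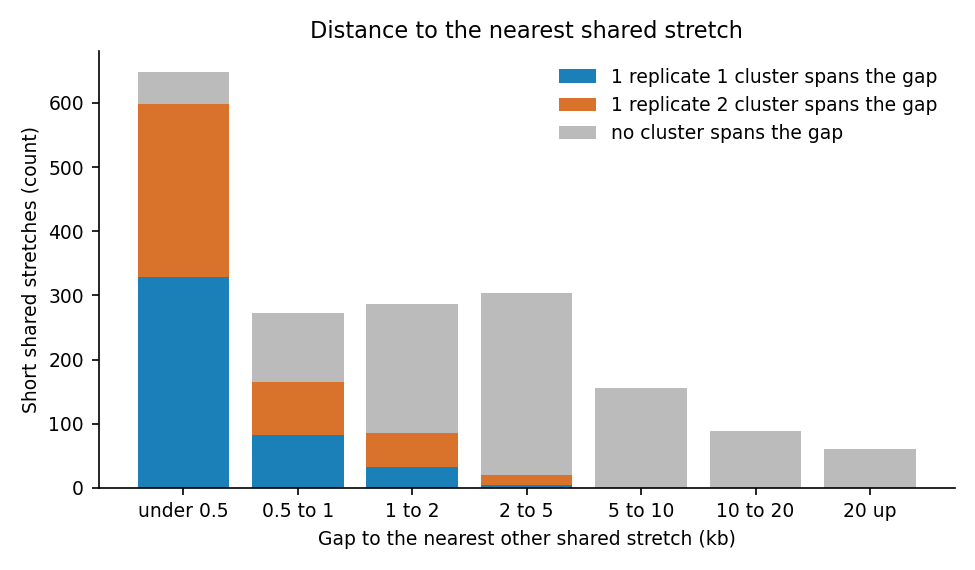
Number of short shared stretches (y axis) by the gap to their nearest other shared stretch (x axis, kb), coloured by whether 1 cluster of a replicate list spans that gap. For most of the 649 stretches with a gap under 0.5 kb a cluster of 1 replicate spanned it, and for those from 5 kb up none did. A gap between 2 stretches that are each other's nearest counts for both.

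Closing small gaps absorbed many of the short stretches. With shared stretches under 500 bp apart joined, 1166 of the 1815 (64.2%) stayed alone, 408 entered a joined stretch of 3 to 10 kb and 158 one of 10 kb or more. Joining under 1 kb left 894 (49.3%) alone, and joining under 2 kb left 608 (33.5%). With gaps under 5 kb closed, 1154 (63.6%) became part of a stretch of 10 kb or more.

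Some short stretches followed each other with no longer one between. Chains were built from members less than 5 kb apart with no stretch of 3 kb or more among them. In all, 895 members were in no chain, 244 chains held 2 members each and 86 held 3. The 38 chains of 4 members or more held 174. The longest had 7 members on 2L between 8218410 and 8239246, where 13825 bp of 20837 bp was shared. Its replicate 1 scores ran from 0.427 to 1.12 and its replicate 2 scores from 0.718 to 1.37. None of the 7 was short in both lists. A single 8886-bp cluster of replicate 2 (score 1.25) covered the last 3, and a 4701-bp cluster of replicate 1 (score 1.12) covered the first 2. Chains of 6 were found on 2L:11604660-11624230, 15173719-15198578 and 15687839-15707804, and on 3R:10350822-10368653 and 24020784-24044067. Of the 6 longest chains, 4 were on 2L.

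The overlap of both views left a small group of self-contained short regions. Isolation was commoner among stretches short in both lists, 173 of 633 (27.3%), than among those with a longer replicate 1 parent (49 of 465, 10.5%), a longer replicate 2 parent (70 of 561, 12.5%) or 2 longer parents (13 of 156, 8.33%). These shares are not independent of the classes. The 173 stretches that were both short in each list and isolated make up 9.53% of all members. Counting clusters of either list as neighbours, and not shared stretches alone, left 94 (5.18%) with nothing else called within 5 kb.

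Scores of the short stretches were low beside all clusters of their lists. Beside clusters under 3 kb, their place differed with the lengths of their parents. The authors gave each cluster 1 score of unstated scale, used here to rank clusters within a list. The parents of the 1815 stretches had a median score of 0.704 in replicate 1 (quartiles 0.548 and 0.963) and 0.869 in replicate 2 (0.729 and 1.04), against medians of 0.871 and 0.957 over all clusters of each list. As a rank, the median was percentile 33.97 of replicate 1 and percentile 38.5 of replicate 2. Set against the clusters under 3 kb of each list alone, the median was percentile 60.6 and 65.4. Parents of 3 kb or more are included in those ranks. For the 633 stretches with both parents under 3 kb it was then percentile 49.3 and 48.5, a comparison added after the data were seen. Where only the other list had a longer parent, the short parents stood at percentile 38.4 in replicate 1 and 37.1 in replicate 2. Against all clusters, the median for stretches of 3 to 10 kb was percentile 74.7 and 76.2, and for those of 10 kb or more 84.7 and 88.7. The score rose within the short range too, from medians of 0.580 and 0.786 below the shortest cluster length to 0.955 and 1.03 from 2500 bp up. Only 231 (12.7%) ranked in the upper 50% of both lists, compared with 1059 (71.5%) at 3 to 10 kb and 379 (97.4%) at 10 kb or more.

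Median scores differed between the parent classes, and quartile ranges overlapped except between the 2 classes with 1 longer parent. In replicate 1 those ranges were 0.776 to 1.35 with a longer replicate 1 parent and 0.487 to 0.711 with a longer replicate 2 parent. In replicate 2 they were 0.647 to 0.891 and 0.918 to 1.16. Stretches short in both lists had medians of 0.639 in replicate 1 and 0.794 in replicate 2, or percentiles 26.8 and 27.2. With a longer replicate 1 parent the medians were 0.986 and 0.749 (percentiles 59.0 and 20.5), and with a longer replicate 2 parent 0.584 and 1.02 (percentiles 20.1 and 58.1). With both parents 3 kb or more they were 0.892 and 1.003 (percentiles 51.7 and 55.7). Replicate 2 gave the higher rank in 491 of the 561 stretches (87.5%) with a longer replicate 2 parent and in 72 of the 465 (15.5%) with a longer replicate 1 parent. The list with the longer cluster thus usually gave the higher rank. In the list where the cluster was short, parents set against a longer one had lower medians than those set against a short one, at like length. In replicate 1 they had 0.584 against 0.639, with parents of 2076 and 2166 bp, and in replicate 2 they had 0.749 against 0.794, with 2182 and 2160 bp. The quartiles overlapped widely (0.487 to 0.711 against 0.513 to 0.839 in replicate 1, and 0.647 to 0.891 against 0.700 to 0.921 in replicate 2).

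Scores of the 2 replicates showed little relation across all short stretches. Over the 1815 members Spearman's rho was -0.03 and Pearson's r was -0.0056, while rho was 0.599 for the 1481 stretches of 3 to 10 kb and 0.704 for the 389 of 10 kb or more. Among the 633 that were short in both lists rho was 0.281 and r was 0.388. With 2 longer parents rho was 0.322, and with a longer parent in replicate 1 or replicate 2 alone it was 0.056 and 0.081. Stretches are not independent, pieces of 1 parent share its score, and the classes differ in which replicate is high, so no p-value is given. Replicate 2 gave the higher rank in 980 (54.0%).

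**Figure D3:**
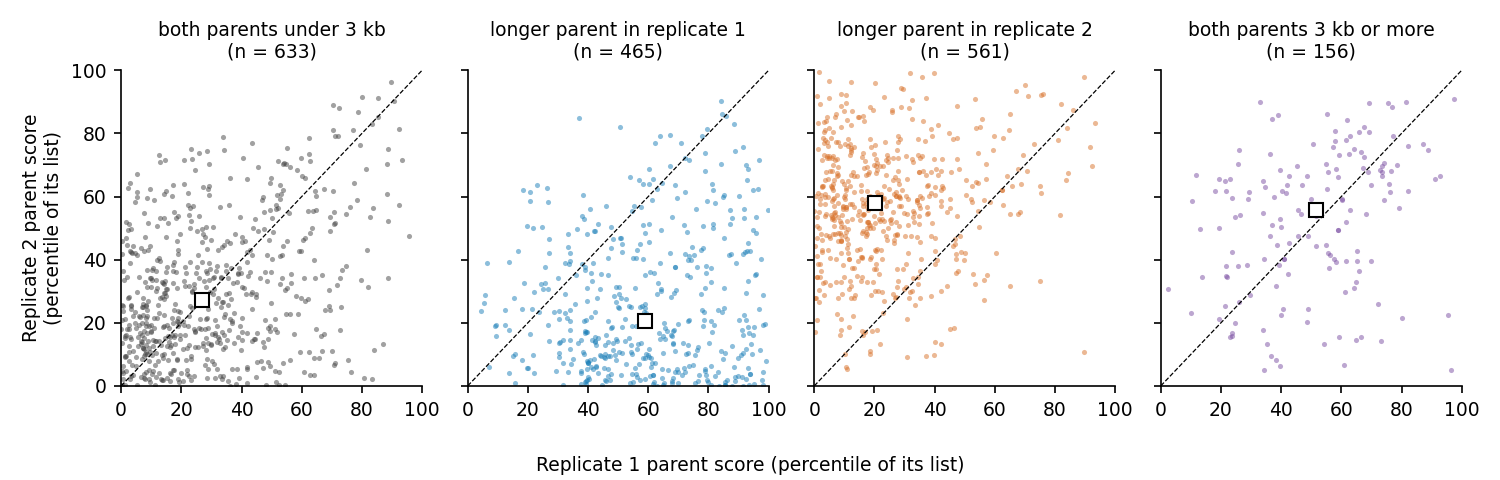
Score of the replicate 2 parent (y axis, percentile of its list) against that of the replicate 1 parent (x axis, percentile of its list) in each parent class, where the white square is the median and the dashed line marks equal percentiles. The median lies on the side of the replicate that holds the longer parent, at percentiles 59.0 and 20.5 for a longer replicate 1 parent and 20.1 and 58.1 for a longer replicate 2 parent.

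The largest disagreement in rank came from nested pieces. On 2L:8363004-8364918, a 1915-bp cluster of replicate 1 scored 0.356 (percentile 1.62) inside a 7458-bp cluster of replicate 2 that scored 2.27 (percentile 99.6). On 3L:14020483-14022365, a 1883-bp cluster of replicate 2 scored 0.361 (percentile 0.191) inside a 31376-bp cluster of replicate 1 that scored 2.22 (percentile 98.0). The other was 3L:20490965-20492441, with 2.18 in replicate 1 and 0.490 in replicate 2. Each lay 181 to 423 bp from another shared stretch. In all 3 the low score belonged to the short cluster and the high one to the longer.

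The strongest short stretches were picked by the lower of their 2 scores, which fixes that both scores are high. By that rule the first was 3L:17467395-17469842 (2448 bp), with 1.70 in replicate 1 and 1.83 in replicate 2 (percentiles 89.7 and 96.2). Its parents were 2448 and 2481 bp long, and it was isolated by 6754 bp. It was followed by 3R:19754815-19757695 (1.69 and 1.96), 3R:10727295-10730243 (2.17 and 1.59), 3L:11674494-11677416 (1.74 and 1.58) and 2L:10377047-10379913 (1.53 and 1.61). The last 5 of the first 10 were 3L:7712345-7715315, 2L:4882843-4885758, 3L:3049925-3052523, 3R:15468297-15470602 and 3L:15137095-15139883, with lower scores between 1.439 and 1.496. The scores of the 2 lists need not share a scale, and ordering by the lower percentile gave the same 10 in another order. It put 3R:10727295-10730243 first (percentiles 97.6 and 90.8), ahead of 3L:11674494-11677416 (90.7 and 90.3) and the 3L stretch from 17467395. All 10 were over 2.3 kb long, in the upper part of the length range. Of the 10, 4 had both parents under 3 kb, 3 a longer parent in replicate 1, 2 a longer parent in replicate 2, and 1 had 2 longer parents.

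Among the 173 stretches short in both lists and isolated, the median scores were 0.663 and 0.807. The highest after the 3L stretch from 17467395 was its neighbour on 3L:17458403-17460640 (2238 bp), with 1.47 and 1.38. They lay 6754 bp apart, each the other's nearest shared stretch, and the nearest stretch of 3 kb or more was 30577 bp from the first and 37789 bp from the second. Next came 3R:25957921-25960235 (1.81 and 1.35), 16793 bp from a stretch of 15486 bp. The others were 3R:13357821-13360653 (1.35 and 1.47) and 3L:18675235-18677707 (1.65 and 1.23). The lower percentile gave the same 5 in the same order. The fourth, on 3R from 13357821, was only just isolated, with a shared stretch of 3 kb or more 5058 bp away and a cluster of 1 list 468 bp away. For the other 4 the nearest cluster of either list lay 6493 to 12412 bp away. The 3L pair thus formed 2 compact, high-scoring regions with no other shared stretch within 5 kb of either.

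The 3 most isolated stretches lay near the centromere end of 2L and 3L, and the 5 most isolated all scored low in replicate 1. On 2L the stretch 22959229-22961227 had its nearest neighbour 484748 bp away and lay 51.3 kb from the centromere end of the assembled arm, with scores of 0.493 and 0.837. On 3L the stretches 23332370-23334171 (0.602 and 0.740) and 23086480-23088770 (0.579 and 0.717) were 243599 and 212769 bp from their nearest neighbours. The others were 2L:16002623-16004798, 163586 bp away with scores of 0.463 and 0.995, and 3L:14618910-14621531, 77593 bp away with 0.453 and 0.871. The first 4 were short in both lists. The 5 ranked from percentile 6.57 to 22.2 in replicate 1 and from 16.0 to 54.7 in replicate 2. Isolated stretches as a class did not rank that low in replicate 1. Over all 305 of them the median was percentile 32.7 in replicate 1 and 36.5 in replicate 2, close to the 33.97 and 38.5 of all members. Isolation from shared stretches did not always mean isolation from calls, since a cluster of 1 list lay 3857 bp from the first of the 3L stretches and 1091 bp from the last.

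The density of short stretches differed little between the inner and outer parts of the arms, while that of the longest ones was higher towards the telomere. Each arm was cut into 3 equal parts. The part on the centromere side held 23.6 short stretches per Mb, the middle 25.6 and the telomere side 23.0. Stretches of 3 to 10 kb had 17.9, 20.1 and 20.8 per Mb, and those of 10 kb or more had 4.21, 4.69 and 6.56. On 2L the contrast was widest, with 27.0, 28.2 and 25.03 short stretches per Mb against 2.74, 3.65 and 6.91 of 10 kb or more. On 3L the short stretches had 20.05, 21.9 and 21.3 per Mb, and on 3R 23.9, 26.7 and 22.9. These differences within 1 genome were not tested.

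The number of short stretches varied among windows of 1 Mb. Over 74 full windows counted from the centromere end, it had a mean of 24.2 ± 9.00 (SD over windows), a median of 23 and a range from 0 to 48. The 3 fullest were on 2L, namely 2L:8011545-9011544 with 48, 2L:4011545-5011544 with 46 and 2L:20011545-21011544 with 41. The first of these windows held the chain of 7. The emptiest was the window of 3L nearest the centromere, 3L:23543558-24543557, with 0 short stretches and 0.105% of its sequence shared. The window of 2L nearest the centromere held 8, whereas that of 3R held 22. Windows with more short stretches tended to hold more of 3 to 10 kb (Spearman's rho 0.474, Pearson's r 0.495, 74 windows), while the share of sequence in stretches of 10 kb or more showed little relation (rho 0.06, r 0.0996). By arm the first rho was lower on 2L (0.269) than on 3L (0.579) and 3R (0.588). The second was -0.065 on 2L, 0.102 on 3L and 0.193 on 3R. Windows on 1 arm share the same libraries and are not independent, so these are descriptions.

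**Figure D4:**
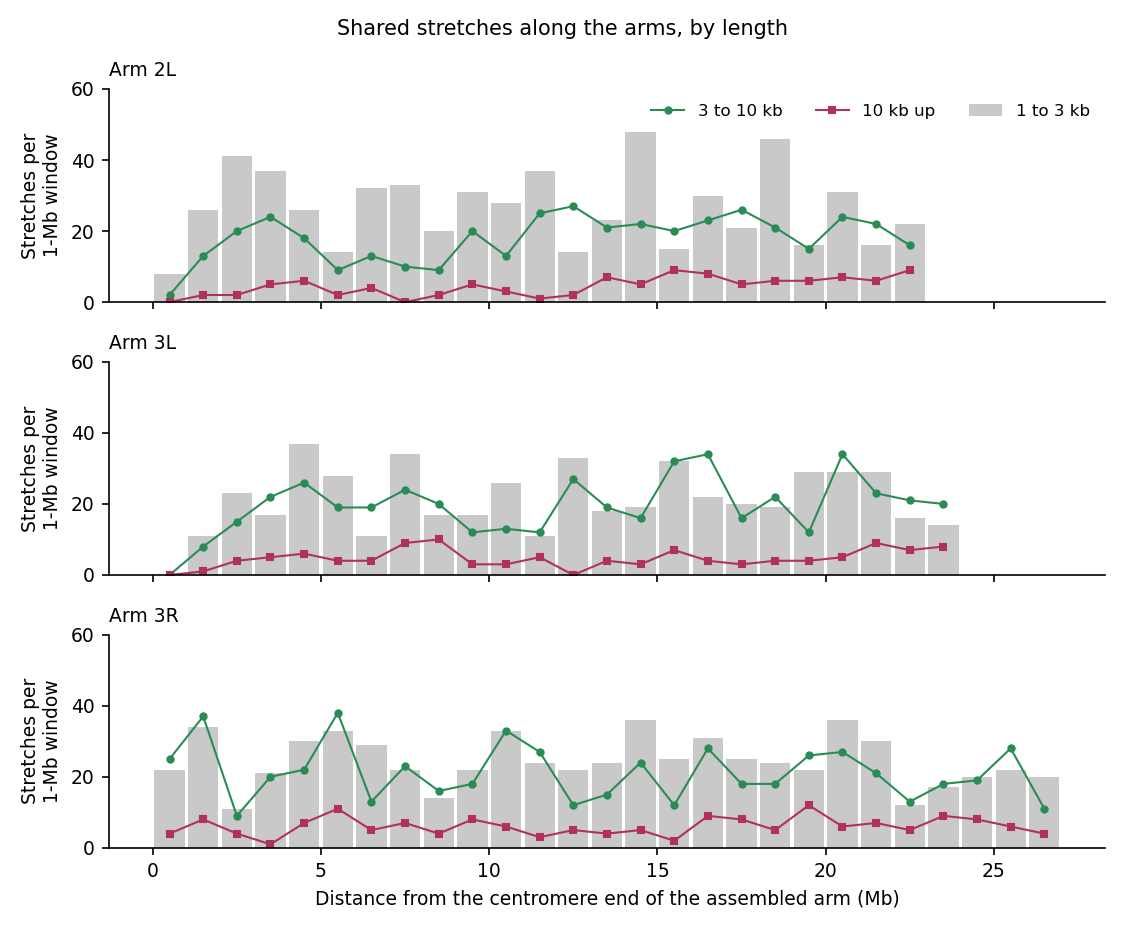
Number of shared stretches in 1-Mb windows (y axis) against distance from the centromere end of the assembled arm (x axis, Mb) on 2L, 3L and 3R, with bars for 1 to 3 kb and lines for 3 to 10 kb and 10 kb up. Short stretches reach 48 in a window of 2L, and the first window of 3L holds none.

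The authors' list for the replicate set often showed a short stretch as part of something longer. That list covers the same libraries and gives no independent support. Each of the 1815 stretches touched one of its clusters, and 1812 lay wholly inside. The cluster was under 3 kb in 510 (28.1%), 3 to 5 kb in 429 (23.6%), 5 to 10 kb in 435 (23.97%) and 10 kb or more in 441 (24.3%). It held at least 1 other shared stretch in 919 (50.6%). That share was no higher than for other lengths, at 74.8% under 1 kb, 53.9% at 3 to 10 kb and 58.4% at 10 kb or more. Of the stretches short in both replicates, 435 of 633 (68.7%) stayed under 3 kb in the replicate-set list, against 22 of 465 (4.73%) and 53 of 561 (9.45%) of those with 1 longer parent. Among the isolated, 162 of 305 (53.1%) stayed under 3 kb and 1 entered a cluster of 10 kb or more. In 385 of the 951 (40.5%) beside a stretch of 3 kb or more, the replicate-set cluster was 10 kb or more. The 173 that were short in both lists and isolated had a median replicate-set cluster of 2485 bp, and 26 of them (15.0%) lay in one of 3 kb or more.

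**Figure D5:**
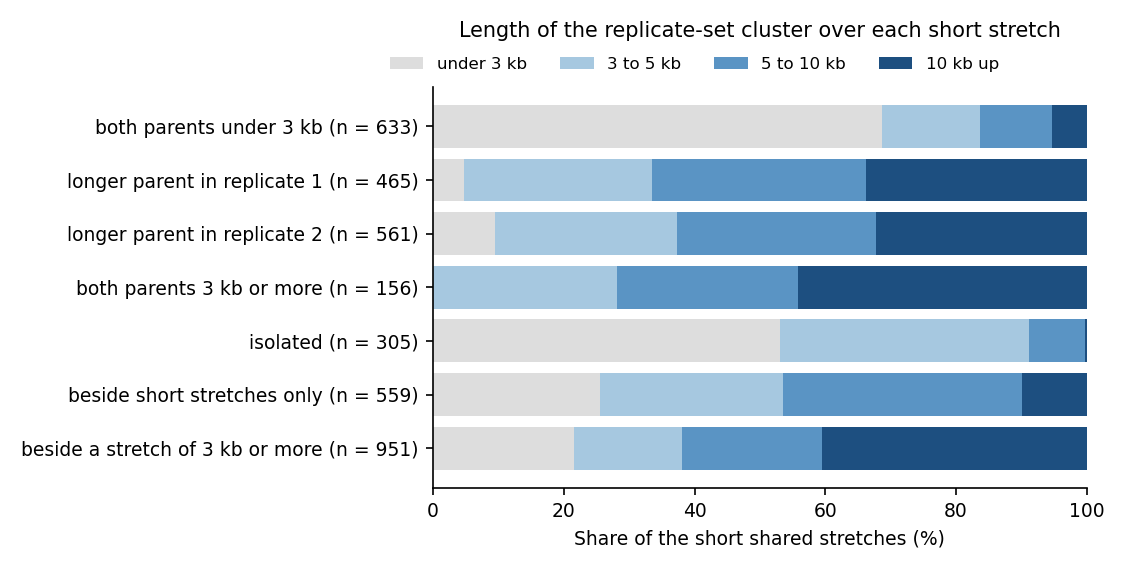
Share of the short shared stretches (x axis, %) by the length of the replicate-set cluster that covers them, for the parent classes and for the neighbourhood classes. Clusters under 3 kb cover 68.7% of the stretches with both parents under 3 kb and 4.73% of those with a longer replicate 1 parent.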

How the data were processed

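Nuclei of adult fly heads gave 2 ChIP libraries for H4K20me1 and 2 inputs. Per the submitters' processing notes, alignment used Bowtie 0.12.7. The authors deposited 3 GFF3 lists of significantly enriched clusters on FlyBase release 5, per the file headers, one for each ChIP replicate (called with the input of the same number, per the labels) and one for the replicate set. The caller, its threshold and minimum length, and whether the set was called on pooled reads, are not stated in the labels or headers. The deposited score of each cluster has no stated scale, so comparisons between the lists use percentiles within a list; regions named by the lower of both scores were also ordered by percentile, a step added after the data were seen. The other values used are the deposited starts and ends in bp, per the file headers. No file gives reads per cluster, so the depth and the precision of a score are unknown.

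The lists held 6426, 6799 and 7052 clusters. Intersection of the replicate lists gave 6726 overlaps, and the 15 pairs that touched were joined. Of the members, 1 had 2 parents in a list; the longest set its class and the one with most overlap its score. Replicate-set neighbours that overlapped (5) were merged. Gaps are bases between stretches, and percentiles are shares of a list at or below a score. The centromere end was the high coordinate of 2L and 3L and the low one of 3R. Regions were named by rules for score, isolation, parent length, rank difference, length limits and chains. The members and lists were chosen with earlier results of these data known. With 2 replicates and members chosen from the calls, no test was made and no p-value is given. Interval code was tested on simulated data. Python 3.11.15, numpy 2.4.6, pandas 2.3.3, scipy 1.17.1 and matplotlib 3.10.9 were used. Alternatives changed joining, score, length and distance limits, and the list.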

Additional observations from a re-analysis of the deposited data

How the results depend on the processing

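No paired analysis was possible because no result comes from a test and the input libraries come without cluster lists. Of 47 alternative values, 16 stayed close to the reported ones (within 1.5 times for counts and densities, within the Wilson interval for shares, within the SD between replicates for ranks) and 31 moved. The number of short stretches was 966 after joining under 1 kb and 232 in the upper 50% by score. The density near the centromere was then 13.0 and 3.18 per Mb. With 1 replicate left out, whole clusters under 3 kb of the other list were counted in place of shared stretches. They numbered 1772 in replicate 1 and 1932 in replicate 2, of which 67.2% and 56.7% contributed to a short shared stretch. Their like totals thus do not show that the same regions were kept. The density of these clusters near the centromere was 22.4 to 25.1 per Mb. The isolated share with 1 replicate left out is likewise one of such clusters. The share with both parents under 3 kb was 45.2% and 51.0% after joining under 500 bp and 1 kb, 26.7% in the upper 50%, and 52.6% and 62.8% with the parent limit at 4 and 5 kb. The isolated share was 15.6% to 20.99% with 1 replicate left out, 33.5% and 8.21% at 2 and 10 kb, 19.1% with neighbours of 1 kb up, 8.21% with clusters of either list as neighbours, 25.2% and 32.9% after joining, and 41.8% in the upper 50%. The median rank was 30.4 in replicate 1 after joining under 1 kb, 26.8 and 27.2 for stretches short in both lists, 60.6 and 65.4 among clusters under 3 kb, 49.3 and 48.5 for stretches short in both lists among those clusters (added after the data were seen), and 69.4 and 67.7 in the upper 50%, where it is raised by construction. The share inside a replicate-set cluster of 3 kb or more was 61.7% and 57.1% after joining and 77.2% in the upper 50%, and was 48.3% and 24.3% for clusters of 5 and 10 kb or more. Wider limits and joining change these shares by their own construction; other causes were not tested. No replicate was left out for the parent classes and ranks, which need both lists, nor for the share inside replicate-set clusters. Depth is unknown, so no limit of detection can be given for stretches below the shortest listed cluster.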
